A study of Mus musculus with 8 samples.

Results

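The mitochondrial ribosomal protein genes examined here were all protein-coding genes whose symbol begins with Mrpl or Mrps followed by a number. Of 56748 gene IDs in the count tables, 78 belonged to this family, and 77 of them had enough counts to be tested. Mrpl43 was set against the rest of the family. The cells were bone marrow-derived mast cells (BMMCs), grown from marrow of C57BL/6 mice aged 6 to 8 weeks in medium with IL-3 and left unstimulated. In the 4 Mettl3-RNP libraries (genotype label Mettl3 KO) the cells had been electroporated with ribonucleoproteins (RNPs) of Cas9 and guide RNAs against Mettl3, which encodes the enzyme that puts m6A marks, methyl groups on adenosines, onto mRNA. In the 4 Pulsed libraries (genotype label WT) the cells had been mock transfected, so the controls had received no Cas9 RNP. The Mettl3-RNP cells were an edited population and not a clone, so cells that kept Mettl3 remained among them. The series text gives 4 mice as the source of the cells, and libraries 1 to 4 of one group were paired with the same numbers of the other.

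Mitochondria carry their own ribosomes, which translate the few mRNAs of the mitochondrial genome, all of them for subunits of the respiratory chain and the ATP synthase. The rRNAs of these ribosomes are encoded in the mitochondrial genome, whereas all of their proteins are encoded in the nucleus, made in the cytosol and imported. Mrpl genes encode proteins of the large subunit, which forms peptide bonds, and Mrps genes mostly those of the small subunit, which reads the mRNA. Some members have counterparts in bacterial ribosomes and others, such as Mrpl43, are found in mitochondrial ribosomes and not in bacterial ones.

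Promoters of genes for mitochondrial proteins often hold binding motifs of the ETS factor GABP, also named NRF-2, of NRF1 and of YY1. Promoter windows from RefSeq (GRCm38.p6, 250 bases before to 50 after each transcription start) were matched by symbol to 69 members with 75 windows, among them 6 of the 7 members that passed the test described further on, with Mrps34 missing. The ETS motif was searched as CCGGAAG, the NRF1 motif as GCGCATGC and the YY1 motif as AAGATGGC, each on both strands and each counted whether or not another motif overlapped it. CCGGAAG was found in 26 member windows (34.7%), against 8.86% of all 32851 windows. GCGCATGC was found in 8 member windows (10.7%), against 2.71% of all windows. AAGATGGC was found in 12 member windows (16.0%), against 2.75% of all windows. Of the 6 matched genes that passed the test, Mrpl43, Mrps23 and Mrpl57 held CCGGAAG and none held either of the other motifs. Their windows are printed, 5′ to 3′ on the strand of the gene, as the promoters of called members that hold the motif. The capitals mark CCGGAAG or its reverse complement CTTCCGG, which Mrpl43 held at 2 positions and the others at 1.
Mrpl43 (chr19:45006393-45006692, minus strand): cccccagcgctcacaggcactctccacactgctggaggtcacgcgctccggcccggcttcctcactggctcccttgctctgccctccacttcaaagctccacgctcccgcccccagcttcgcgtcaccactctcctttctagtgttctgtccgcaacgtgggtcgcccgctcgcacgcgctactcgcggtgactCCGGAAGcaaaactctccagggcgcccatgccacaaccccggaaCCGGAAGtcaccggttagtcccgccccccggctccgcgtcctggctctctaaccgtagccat
Mrps23 (chr11:88204138-88204437, plus strand): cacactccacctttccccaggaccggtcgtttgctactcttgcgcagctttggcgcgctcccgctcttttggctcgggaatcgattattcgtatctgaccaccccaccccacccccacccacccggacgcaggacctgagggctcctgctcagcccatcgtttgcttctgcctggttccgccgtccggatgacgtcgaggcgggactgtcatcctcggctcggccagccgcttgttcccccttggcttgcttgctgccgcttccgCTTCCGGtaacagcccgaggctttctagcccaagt
Mrpl57 (chr14:57825989-57826288, plus strand): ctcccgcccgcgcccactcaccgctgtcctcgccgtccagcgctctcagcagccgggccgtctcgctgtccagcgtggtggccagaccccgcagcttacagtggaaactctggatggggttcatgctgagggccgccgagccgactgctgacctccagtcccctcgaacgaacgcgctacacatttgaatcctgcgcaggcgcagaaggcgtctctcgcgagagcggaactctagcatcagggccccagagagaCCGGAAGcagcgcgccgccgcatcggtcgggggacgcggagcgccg

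METTL3 methylates adenosines within a short consensus of which GGACT is a common form. The canonical transcripts (GENCODE release M39) were therefore searched for these letters on the strand of the RNA. A match of letters does not show that a site is methylated. The study itself mapped m6A by miCLIP-seq in resting and stimulated mast cells, and those data were not used here. GGACT was found in 68 of 77 tested members (88.3%), and in 93.8% of the 12056 protein-coding genes tested. Per kb of transcript the median was 0.935 sites in members and 1.04 in protein-coding genes. Among the 7 members that passed the test, 6 held at least 1 site and Mrpl16 held none. Across the 77 tested members, sites per kb and log2 fold change had a Spearman's rho of 0.09, given as a description because sites also depend on transcript length and base composition. Both sites of the Mrpl43 transcript lay in its coding sequence, at transcript positions 62 and 458 of 1398 bases, and Mrps34 had coding sites at positions 654 and 673 of 936 and 1 further site at position 734, after the stop codon. These 5 are shown with 8 bases on either side and the GGACT letters in capitals, because they belong to the 2 members whose groups of libraries did not overlap.
Mrpl43 62: cggtcgcgGGACTtcgagccg
Mrpl43 458: caacaaacGGACTgccctcca
Mrps34 654: cctggagaGGACTcgaatgcg
Mrps34 673: cgcccctgGGACTaccctgca
Mrps34 734: aactgccaGGACTggcagaga

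Total counts ranged from 32643260 to 45324826 per library, of which the family took 0.181 to 0.238%. All 78 members had at least 1 count in each of the 8 libraries. Levels are given as CPM, the count per 1000000 counts with library sizes scaled by TMM. The targeted gene Mettl3 was at 12.3, 9.18, 4.88 and 9.21 CPM in Mettl3-RNP libraries 1 to 4 and at 25.9, 24.5, 11.2 and 26.5 CPM in Pulsed libraries 1 to 4. It was lower in 4 of 4 pairs, with a log2 fold change of -1.30 (SE 0.109, adjusted p 0.00543), although the level of Pulsed 3 lay below that of Mettl3-RNP 1. Over all genes tested 2.35% passed the test as higher, 1.39% passed as lower, and 22.5% had an unadjusted p under 0.05. Of 9 mast cell markers tested, 1 passed the test. It was Cpa3, a mast cell protease, with a log2 fold change of -0.37 (adjusted p 0.0328). The summed level of these markers ran from 38256 to 54000 CPM in Mettl3-RNP libraries and from 43248 to 60950 CPM in Pulsed libraries. Of 3 basophil markers 0 passed, with 1 at an unadjusted p under 0.05. Mcpt8 and Prss34 had log2 fold changes of -0.42 and -0.68 (adjusted p 0.267 and 0.299) and were lower in 4 of 4 pairs, and Cd200r3 had one of 0.25 (adjusted p 0.151) and was called higher by DESeq2. With removeBatchEffect 2 of the 3 were called lower and 1 higher, but that setting called 30.5% of all genes, with 15.4% called lower. The 3 macrophage markers tested did not move one way. Adgre1 had a log2 fold change of -1.13 (adjusted p 0.0435), Lyz2 one of 0.02 (adjusted p 0.977) and Cd68 one of 1.63 (adjusted p 0.142). Cd68 was at 3.71, 23.8, 11.1 and 28.3 CPM in Mettl3-RNP libraries and at 5.01, 3.16, 6.56 and 3.26 CPM in Pulsed libraries. It was called higher with every gene with at least 1 count, with removeBatchEffect and without replicate 1 (adjusted p 0.0333). The macrophage list summed to 7.08 to 35.9 CPM in Mettl3-RNP libraries against 9.42 to 15.1 CPM. Without 1 replicate number Adgre1 had adjusted p from 0.0906 to 0.110, and Cpa3 had 0.159, 0.0710 and 0.109 without replicate 2, 3 and 4. Neutrophil markers summed to at most 0.199 CPM in any library, with 2 of 3 at 0 counts throughout. Erythroid markers summed to 1.08 to 2.61 CPM in Mettl3-RNP libraries and to 2.55 to 4.62 CPM in Pulsed libraries. The 1 erythroid marker tested, Hba-a1, had a log2 fold change of -0.95 (adjusted p 0.0855), and was called lower by DESeq2, with every gene with at least 1 count, with removeBatchEffect and without replicate 1. The part of other cells in the results that follow was not tested. In bulk RNA a lower number of cells of a type and less RNA per cell cannot be told apart.

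Mrpl43, a protein of the large subunit, was the member that stood highest over its control. Its expression was 79.0, 100.4, 111.1 and 112.7 CPM in Mettl3-RNP libraries 1 to 4 and 44.4, 54.7, 52.0 and 51.1 CPM in Pulsed libraries 1 to 4. Every Mettl3-RNP library lay above every Pulsed library. The mean was 100.8 ± 15.5 CPM (SD, n = 4) against 50.6 ± 4.37 CPM (SD, n = 4), from raw counts of 1580 to 4297 per library. Mrpl43 rose 1.98-fold, with a log2 fold change of 0.99 (SE 0.079) and an adjusted p of 0.00543 by the quasi-likelihood test of edgeR with the replicate number as a block. The log2 difference was 0.83, 0.87, 1.10 and 1.14 in pairs 1 to 4. By fold change Mrpl43 was rank 303 of 14942 genes tested and by p it was rank 4. Its call held when any 1 replicate number was left out, with adjusted p from 0.00176 to 0.0380 by the same test. In the fit that left out the replicate block its adjusted p was 0.427, at a log2 fold change of 1.00.

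Of the 77 tested members, 7 passed an adjusted p of 0.05 as higher in Mettl3-RNP cells (9.09%), against a background of 2.35% of all genes tested, and 0 passed as lower, against 1.39%. At an unadjusted p under 0.05 there were 17 higher members (22.1%), against 11.8% of all genes, and 4 lower members (5.19%), against 10.7%. With a fold change of at least 1.5 as a further limit, 4 members were higher (5.19%), against 1.24% of all genes. In 2 of 77 members, Mrpl43 and Mrps34, all 4 Mettl3-RNP libraries lay above all 4 Pulsed libraries. This was near the share over all genes tested, 304 of 14942 (2.03%). All 7 called members were higher in 4 of 4 pairs, as were 20 members in total (26.0%), against 15.7% of all genes. A further 10 members (13.0%) were lower in 4 of 4 pairs, against 16.0% of all genes. The centre of the family lay close to that of all genes. Its median log2 fold change was -0.0011, with quartiles of -0.11 and 0.18, and the median over all genes was -0.0013, with quartiles of -0.16 and 0.20.

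**Figure D1:**
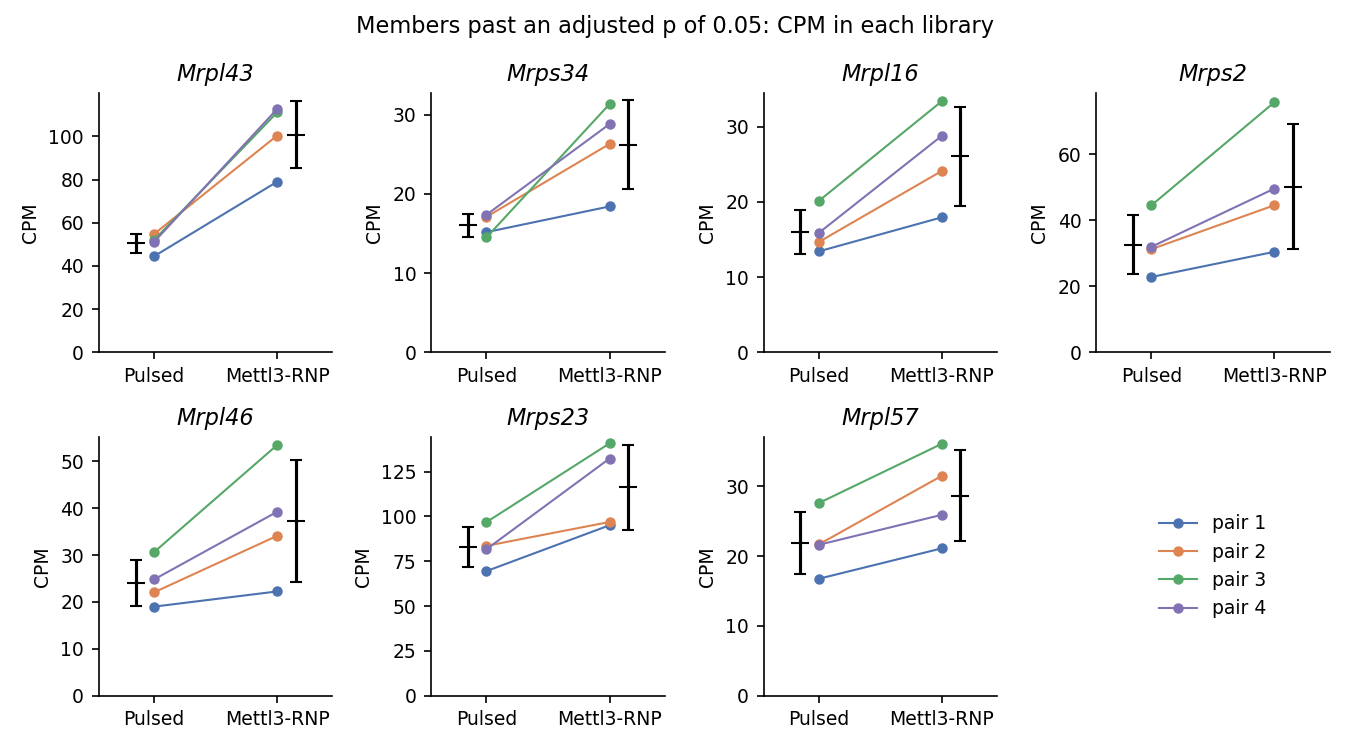
Expression (CPM, axis from 0) of the 7 members with an adjusted p of 0.05 or less in Pulsed and Mettl3-RNP libraries. Points are single libraries, lines join libraries with the same replicate number, and black marks give the mean and SD of 4 libraries. Every line slopes upward, and in Mrpl43 and Mrps34 the groups do not overlap.

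Next to Mrpl43 stood Mrps34, a small-subunit protein found in mitochondrial ribosomes. Its expression was 18.4, 26.3, 31.3 and 28.8 CPM in Mettl3-RNP libraries 1 to 4 and 15.2, 17.1, 14.5 and 17.4 CPM in Pulsed libraries 1 to 4. The groups did not overlap, but the gap between the highest Pulsed library and the lowest Mettl3-RNP library was small. The mean rose from 16.0 ± 1.42 to 26.2 ± 5.60 CPM (SD, n = 4 each), with a log2 fold change of 0.69 (SE 0.132, adjusted p 0.0342). Mrpl16, a large-subunit protein with a bacterial counterpart, was at 18.0, 24.1, 33.4 and 28.8 CPM in Mettl3-RNP libraries and at 13.4, 14.7, 20.1 and 15.9 CPM in Pulsed libraries. Of the Mettl3-RNP libraries, number 1 lay within the range of the Pulsed group. Its log2 fold change was 0.68 (SE 0.097, adjusted p 0.0178).

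Mrps2, a small-subunit protein that also has a bacterial counterpart, was at 30.5, 44.6, 75.9 and 49.6 CPM in Mettl3-RNP libraries and at 22.8, 31.3, 44.6 and 32.0 CPM in Pulsed libraries. Replicate 3 was the highest of both groups. The log2 fold change was 0.59 (SE 0.081, adjusted p 0.0165). Mrpl46, a large-subunit protein of mitochondrial ribosomes, was at 22.2, 34.1, 53.4 and 39.2 CPM against 19.0, 22.0, 30.6 and 24.8 CPM, again highest in replicate 3. Its log2 fold change was 0.58 (SE 0.104, adjusted p 0.0301). Mrps2 lay just above the 1.5-fold limit and Mrpl46 just under it.

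Mrps23, another small-subunit protein of mitochondrial ribosomes, was at 95.0, 96.9, 140.7 and 132.2 CPM in Mettl3-RNP libraries and at 69.5, 83.6, 96.8 and 81.7 CPM in Pulsed libraries. Mettl3-RNP 1 and 2 were at about the level of Pulsed 3. The log2 fold change was 0.48 (SE 0.088, adjusted p 0.0328). Mrpl57, a small protein of the large subunit, was at 21.1, 31.5, 36.1 and 25.9 CPM against 16.8, 21.7, 27.6 and 21.6 CPM, with overlapping groups. Its log2 fold change was 0.38 (SE 0.082, adjusted p 0.0491), the call closest to the threshold. The calls of these 6 members depended on which pairs were included. Without replicate 2, Mrpl43 was the only member called and the other 6 had adjusted p from 0.0709 (Mrps23) to 0.231 (Mrpl57), with log2 fold changes from 0.32 to 0.70. Without replicate 3, Mrps34, Mrpl46, Mrps23 and Mrpl57 lost their call. Without replicate 4, Mrpl46, Mrps23 and Mrpl57 did, and without replicate 1, Mrps23 and Mrpl57. Mrpl16 and Mrps2 stayed called without replicate 1, 3 or 4. With every gene with at least 1 count Mrpl57 lost its call too (adjusted p 0.0890 by the edgeR test). The fit without the replicate block called 0 of all 14942 genes, the 77 members included, of which 6 had an unadjusted p under 0.05.

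The other 70 tested members had log2 fold changes from -0.33 to 0.49, and 61 of them lay within 0.25 of 0. Mrpl51 was at 36.6, 46.7, 44.9 and 60.4 CPM in Mettl3-RNP libraries and at 35.1, 38.0, 19.5 and 44.6 CPM in Pulsed libraries, so that Pulsed 3 stood below the rest. Its log2 fold change of 0.49 (SE 0.166) had an adjusted p of 0.130. Mrpl14 (0.47, adjusted p 0.125), Mrps12 (0.45, adjusted p 0.0802) and Mrps7 (0.34, adjusted p 0.0830) were higher in 4 of 4 pairs and did not pass either. At the other end stood Mrpl52 with -0.33 (adjusted p 0.155) and Mrpl42 with -0.30 (adjusted p 0.0562), both parts of the large subunit and both lower in 4 of 4 pairs. Under DESeq2 with the replicate number in the design, Mrpl14, Mrps12, Mrpl51 and Mrps7 were called higher and Mrpl42 lower. Mrpl53, a large-subunit protein, was not tested, with at most 0.228 CPM in any library.

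**Figure D2:**
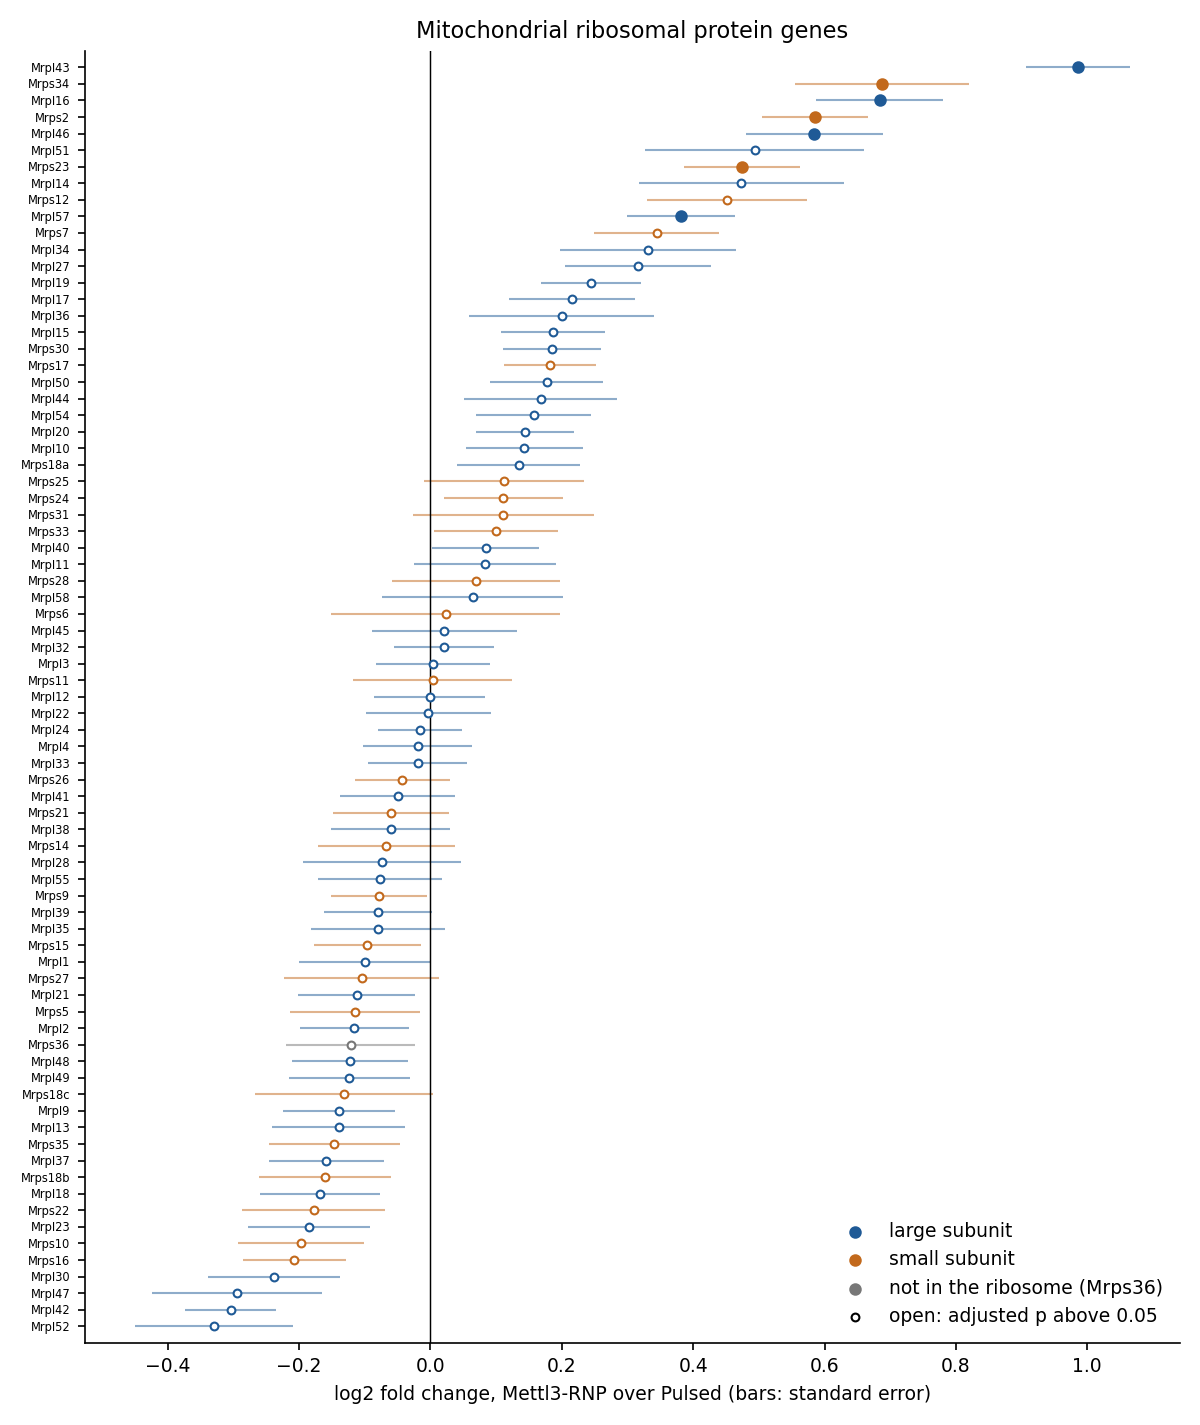
Log2 fold change of Mettl3-RNP over Pulsed for the 77 tested members, sorted, with bars of 1 standard error. Filled points passed an adjusted p of 0.05, and blue and orange mark the large and the small subunit. Most points lie around 0, and Mrpl43 lies 0.30 above the next member.

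Members of both subunits were among the 7, and the counts of each class stand against the 2.35% of all genes tested that were called higher. In the large subunit 4 of 50 tested members were higher, with a median log2 fold change of 0.0014 and a range from -0.33 to 0.99. In the small subunit 3 of 26 were higher, with a median of -0.02 and a range from -0.21 to 0.69. Mrps36, which carries a family symbol but belongs to a metabolic enzyme complex in mammals, had a log2 fold change of -0.12. Of 45 tested members with bacterial counterparts 2 were higher, Mrpl16 and Mrps2, with a median of -0.0034. Of 31 found in mitochondrial ribosomes and not in bacterial ones 5 were higher, with a median of 0.06. The difference between these classes was not tested.

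Within each pair of libraries the distance of Mrpl43 from the family could be read directly. The log2 difference of Mrpl43 exceeded the median of the other tested members by 0.87, 0.91, 0.91 and 1.20 in pairs 1 to 4, with a mean of 0.97 ± 0.15 (SD, n = 4 pairs). Mrpl43 was the highest member in pairs 1, 2 and 4 and rank 4 in pair 3, where Mrpl51 led with 1.20. In pair 3 the family as a whole stood higher. Its median log2 difference was 0.18 in pair 3 and -0.04, -0.03 and -0.05 in pairs 1, 2 and 4, and 60 of 77 members were higher in pair 3 against 35 in each of the others. The median over all genes tested lay between -0.03 and 0.02 in every pair. The next highest members were Mrps23 with 0.45 in pair 1 and Mrpl16 with 0.72 in pair 2 and 0.86 in pair 4.

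**Figure D3:**
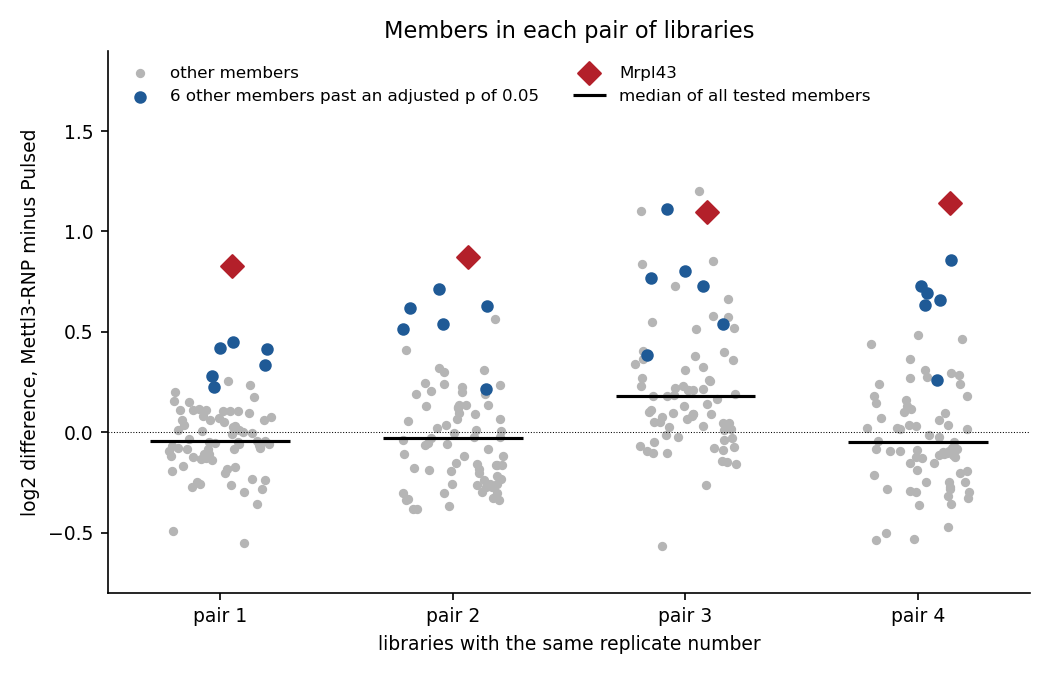
Log2 difference of Mettl3-RNP minus Pulsed for each of the 77 tested members in each pair of libraries with the same replicate number. The red diamond is Mrpl43, at 0.83, 0.87, 1.10 and 1.14, blue points are the 6 other called members and bars are medians of all tested members. Mrpl43 is the highest point in pairs 1, 2 and 4.

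The sum over all 78 members was 1789, 2143, 2479 and 2279 CPM in Mettl3-RNP libraries 1 to 4 and 1733, 2080, 2056 and 2134 CPM in Pulsed libraries 1 to 4. The groups overlapped, with means of 2173 ± 290 and 2001 ± 182 CPM (SD, n = 4 each). Mrpl43 alone made up 2.53% of the mean family sum in Pulsed libraries and 4.64% in Mettl3-RNP libraries. By CPM it moved from rank 5 of the family in Pulsed to rank 2 in Mettl3-RNP libraries, behind Mrps23. Per kb of canonical transcript, over all 8 libraries, the highest members were Mrps21 with 95.7, Mrps23 with 72.7 and Mrpl33 with 68.1 CPM per kb, followed by Mrpl43 with 54.1. The lowest of the tested members were Mrpl47 with 1.96, Mrps18c with 2.02 and Mrps28 with 2.58 CPM per kb. Of these 7 members Mrps23 and Mrpl43 passed the test as higher, against 7 of all 77 tested members and 2.35% of all genes. Mrps21, Mrpl33, Mrpl47, Mrps18c and Mrps28 all have bacterial counterparts, as do 45 of the 77 tested members. Tested members ranged from 4.71 to 99.5 CPM in the mean of all libraries.

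The Mrpl43 gene spans chr19:44988010-44995671 (GRCm39, minus strand) and its canonical transcript has 3 exons. Annotated exons of Sema4g and of Twnk overlap exons of Mrpl43 on the opposite strand. Twnk encodes the helicase that unwinds mitochondrial DNA, and its canonical transcript starts 56 bases from that of Mrpl43 and runs the other way. The promoter window of Mrpl43 printed above overlaps a window of Twnk, so both copies of CCGGAAG lie in both. Twnk was at 18.9, 19.7, 17.1 and 22.6 CPM in Mettl3-RNP libraries and at 20.0, 19.2, 13.5 and 20.2 CPM in Pulsed libraries. The groups overlapped, and the log2 fold change was 0.11 (SE 0.098, adjusted p 0.553). Sema4g, whose canonical transcript ends 1431 bases from the end of the canonical Mrpl43 transcript, was at most 0.911 CPM in any library. Both neighbours were thus below the lowest level of Mrpl43, 44.4 CPM. Whether the counting used strand is not given in the sources used here, so reads from overlapping exons cannot be assigned with certainty.

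**Figure D4:**
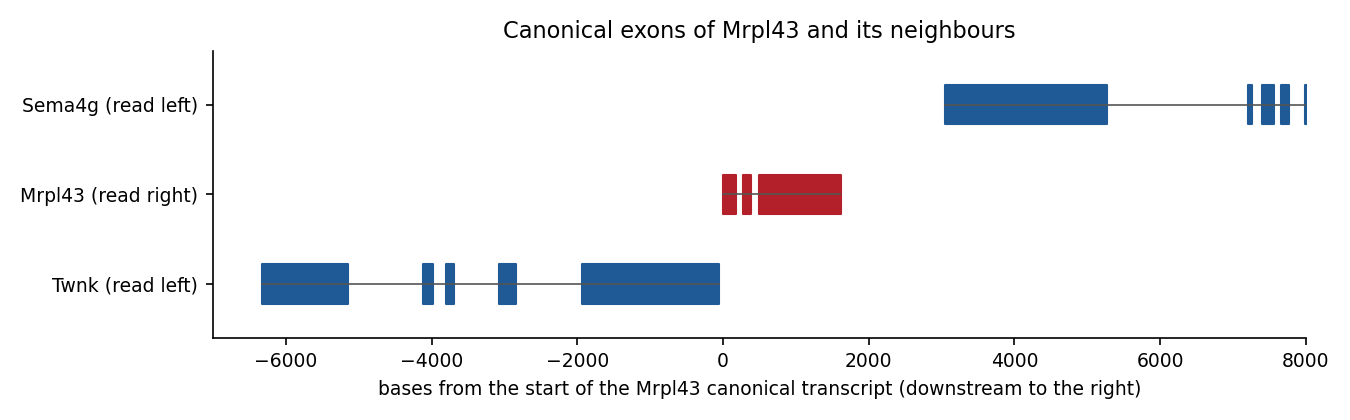
Canonical exons (boxes) of Mrpl43, Twnk and Sema4g by distance in bases from the Mrpl43 start, with the far end of Sema4g cut off at the right. Mrpl43 and Twnk start 56 bases apart on opposite strands, and the canonical exons of the 3 genes do not overlap.

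Exons overlapped those of a gene on the opposite strand in 46 of 77 tested members. The share over all genes was not determined. Of the 7 called members, Mrps2 and Mrps23 had no such overlap. They were the 2 called higher among the 31 tested members without one, against 2.35% of all genes. Whether calls depend on overlap was not tested. Mrps34 overlaps Eme2, a subunit of a DNA endonuclease, on the opposite strand. Eme2 fell, from 13.9, 12.9, 12.9 and 11.7 CPM in Pulsed libraries to 9.10, 8.27, 8.33 and 4.56 CPM in Mettl3-RNP libraries, with a log2 fold change of -0.80 (SE 0.147, adjusted p 0.0324). Mrps34 and Eme2 thus moved in opposite directions. Without replicate 2 the adjusted p was 0.114 for Eme2 and 0.136 for Mrps34, and without replicate 3 it was 0.0534 and 0.0574. Mapk8ip3, which also overlaps Mrps34 on the opposite strand, had a log2 fold change of 0.05 (adjusted p 0.706). Nme3, which overlaps Mrps34 on the same strand, was at most 0.0746 CPM in any library and was not tested. Mrpl46 starts head to head with another member, Mrps11, a small-subunit protein. Mrps11 was at 11.5, 13.6, 16.2 and 14.7 CPM in Mettl3-RNP libraries and at 12.5, 15.2, 12.2 and 15.7 CPM in Pulsed libraries, with a log2 fold change of 0.0037 (SE 0.121, adjusted p 0.991). Stx3, opposite Mrpl16, had a log2 fold change of -0.04 (adjusted p 0.847), and Ska3, opposite Mrpl57, one of 0.24 (adjusted p 0.385).

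Members with few exons stood higher than members with many. The 35 tested members with up to 4 exons in the canonical transcript were centred on a log2 fold change of 0.14 (median), and 6 of them were called higher (17.1%). The 42 with 5 or more exons had a median of -0.08, and 1 of them, Mrps23, was called (2.38%). Among all protein-coding genes tested, 5.45% of 2477 genes with up to 4 exons were called higher, with a median of 0.09, and 1.99% of 9579 genes with 5 or more exons, with a median of -0.01. Exon number and log2 fold change had a Spearman's rho of -0.54 across the 77 members, and of -0.34, -0.55, -0.55 and -0.33 in pairs 1 to 4. Over the 31 members without an overlap on the opposite strand rho was -0.51, and over the 70 members that were not called it was -0.50. Over all 12056 protein-coding genes tested it was -0.09. Across members rho was -0.01 for transcript length and 0.29 for mean CPM. These are descriptions across genes, which share libraries and are not independent replicates.

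**Figure D5:**
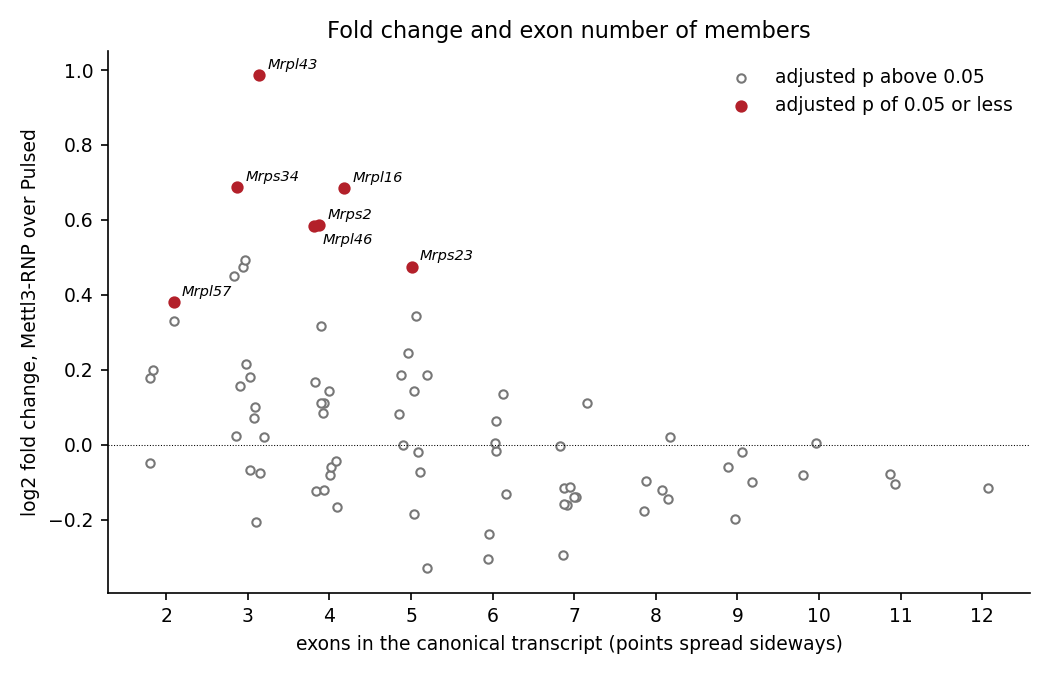
Log2 fold change of the 77 tested members by number of exons in the canonical transcript, with filled points for the 7 called members. Called members have 2 to 5 exons, and Spearman's rho across the members is -0.54.

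Genes that work with the mitochondrial ribosome were taken from lists compiled from textbook knowledge. Over all genes tested 2.35% were called higher, 1.39% were called lower and 22.5% had an unadjusted p under 0.05, which is the background for the counts given for each list. Ribosomal proteins under other symbols, such as Dap3 of the small subunit, had 0 of 5 called, with log2 fold changes from -0.23 (Ptcd3) to 0.28 (Chchd1) and 2 at an unadjusted p under 0.05. Assembly factors had 0 of 24 called, with a median of 0.09 and 2 at an unadjusted p under 0.05. Translation factors had 0 of 19 called, with a median of 0.05 and 3 at an unadjusted p under 0.05. Genes for replication, transcription and mRNA binding in mitochondria had 0 of 11 called, with a median of -0.03 and 1 at an unadjusted p under 0.05. Of 19 aminoacyl-tRNA synthetases that act in mitochondria, 1 fell and 0 rose, with a median of -0.10 and 9 at an unadjusted p under 0.05. In 4 of 4 pairs 7 of them were lower and 3 higher, against 16.0% and 15.7% of all genes. The one that fell was Gars1, the glycyl-tRNA synthetase of both cytosol and mitochondria, with 39.8, 61.1, 79.7 and 65.4 CPM in Mettl3-RNP libraries and 50.1, 78.7, 97.6 and 93.4 CPM in Pulsed libraries. It was lower in 4 of 4 pairs, with overlapping groups and a log2 fold change of -0.38 (SE 0.069, adjusted p 0.0324). Without replicate 1, 2 or 4 its adjusted p was 0.0949, 0.137 or 0.253, and with every gene with at least 1 count it was 0.0955. DESeq2 called 1 translation factor lower and none of the assembly factors, of the other ribosomal proteins or of the genes for replication, transcription and mRNA binding.

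The RNAs encoded in the mitochondrial genome were measured in the same libraries, after selection for poly-A RNA. The rRNAs mt-Rnr1 and mt-Rnr2, the core of the small and the large subunit, had log2 fold changes of 0.09 and 0.09 (adjusted p 0.658 and 0.662). Without replicate 3 both lay on the other side of 0, at -0.01 and -0.03. Of the 13 mitochondrial mRNAs, which these ribosomes translate, 0 passed, with 10 at an unadjusted p under 0.05 (22.5% of all genes) and a lowest adjusted p of 0.0562 in the edgeR test. All 13 had negative log2 fold changes, from -0.68 to -0.18 with a median of -0.33, and 9 were lower in 4 of 4 pairs, as were 16.0% of all genes. Their summed level ran from 33746 to 42612 CPM in Mettl3-RNP libraries and from 40445 to 55444 CPM in Pulsed libraries. DESeq2 called 6 of the 13 lower, against 3.76% of all genes called lower by it. With removeBatchEffect followed by limma-trend 10 were called lower, against 15.4%, and with every gene with at least 1 count 2 were, against 1.05%. The fit without the replicate block called 0. These mRNAs come from shared precursor transcripts, so they are not independent of each other.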

How the data were processed

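RNA-seq was performed on 8 libraries of resting BMMCs, 4 per group. The authors enriched poly-A RNA, aligned paired-end reads to GRCm39 with HISAT2 2.2.1 after FastQC 0.11.9, and counted reads per gene with featureCounts 2.0.1. The deposited values are raw counts, with no normalization. According to its methods the study corrected counts for a batch, but those deposited are whole numbers. The batch and the strand and multimapping settings are not given in the sources used here. Gene names and exons came from GENCODE M39, which named 56017 of 56748 IDs (98.7%) and is newer than the annotation of the authors. Exon overlaps were taken over genes in the count tables.

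Genes were kept by filterByExpr of edgeR 4.0.16 (about 10 counts in 4 libraries), which left 14942. Counts were scaled by TMM and tested with the quasi-likelihood test of edgeR (R 4.3.3), with replicate number as the block and Benjamini-Hochberg adjustment over all genes tested. A member was called at an adjusted p of 0.05 or less. Log2 differences within pairs used log2 CPM with a prior count of 2. The test was checked on simulated data. Alternatives were the fit without the replicate block, DESeq2 1.42.0 (its size factors in edgeR, and its Wald test), limma 3.58.1 (voom, and removeBatchEffect followed by limma-trend), every gene with at least 1 count, leaving out each replicate number, and members without opposite-strand overlap.

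The members and lists were chosen with earlier results of these data known. Named genes were Mettl3, Mrpl43, every called member, the 3 highest and 3 lowest members per kb and the member with the lowest fold change. The member not tested, genes that overlap Mrpl43, called genes of the lists and the mitochondrial rRNAs were named too. So were, where the text speaks of it, members that a setting moved across 0.05. Those are given for DESeq2 and for every gene with at least 1 count, and not for the others called with removeBatchEffect. Genes that overlap other called members, Ptcd3, Chchd1, Dap3, Mrps36, Cd68, Lyz2, Hba-a1, the basophil markers and the members named for their spread between libraries were chosen after their values were seen. Pairing by number was checked by correlating how far libraries with one number deviated from their group means. Over the 11985 genes that averaged 1 CPM or more these were 0.825, 0.489, 0.879 and 0.765 in pairs 1 to 4, and at most 0.183 between other numbers. Over all 14942 genes pair 2 had 0.0738, below the highest value between other numbers, 0.249. The numbers were taken to stand for mice. If they do not, p-values measure only the spread between these samples. Reads carried no molecular identifiers and were not independent molecules.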

Additional observations from a re-analysis of the deposited data

Results flagged for a closer look

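In groups of 4 libraries, 3 values stood far from the rest of their group, by a gap that exceeded the critical value of Dixon's test. All 3 were in Pulsed 3. Mettl3 was at 11.2 CPM there, against 24.5 to 26.5 CPM in the other Pulsed libraries. Mrps18c, a small-subunit protein, was at 11.6 CPM, against 6.13 to 6.79 CPM. Twnk, the neighbour of Mrpl43, was at 13.5 CPM, against 19.2 to 20.2 CPM. The rule was applied to 38 groups, and chance flags about 1 in 20, or 1.9 of 38.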

How the results depend on the processing

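Mrpl43 kept its direction, its adjusted p of 0.05 or less and the highest fold change of the members with other scaling, DESeq2, voom, removeBatchEffect and every gene with at least 1 count, and without any 1 replicate number. The exception was the paired design itself. Without the replicate block Mettl3 had a log2 fold change of -1.31 (adjusted p 0.744) and Mrpl43 one of 1.00 (adjusted p 0.427), and 0 members were called, against 7 with it (0 of all genes, against 3.74%). The number of called members was 12 with the DESeq2 Wald test (11 higher and 1 lower, 15.6% against 9.70% of all genes). With removeBatchEffect followed by limma-trend it was 28 (20 higher and 8 lower, 36.4% against 30.5% of all genes). The test of that setting keeps degrees of freedom that the correction used. Among the 31 members without opposite-strand overlap 2 were called in the fit with the block, against 3.74% of all genes. The number of called members ranged from 1 (without replicate 2) to 5 when a replicate number was left out, with 3 without replicate 3 and 4 without replicate 4. Of all genes tested 2.18, 0.174, 2.57 and 2.23% were called without replicate 1, 2, 3 and 4. The number was 7 with DESeq2 size factors, 7 with voom and 9 with every gene with at least 1 count, against 3.85, 4.30 and 2.95% of all genes. In the last of these settings Mrpl57 was not called, and Mrpl14, Mrpl51 and Mrps12 were called higher. With fewer replicate numbers fewer libraries were tested, and the cause of the other changes was not tested. Mettl3 and the 7 called members kept their direction under all of these alternatives. Values close to 0 did not. The median of the members ran from -0.06 without replicate 3 to 0.03 without replicate 4. The median of the translation factors was -0.04 without replicate 3, against 0.05. Without replicate 2 the median of the genes for replication, transcription and mRNA binding was 0.03, against -0.03, and both mitochondrial rRNAs were below 0 without replicate 3.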

Other observations

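Between Pulsed libraries the members had a median SD of log2 CPM of 0.256. Over the 7588 genes tested whose mean CPM lay within the range of the members, themselves included, it was 0.338, and the difference was not tested. Some members followed the replicate number in both groups. Mrpl49, a protein of the large subunit, was at 20.4, 24.7, 10.3 and 28.4 CPM in Pulsed libraries 1 to 4 and at 19.2, 20.0, 10.7 and 25.6 CPM in Mettl3-RNP libraries 1 to 4, lowest in replicate 3 of both. Mrps18b, a protein of the small subunit, was at 15.3, 31.3, 41.4 and 31.4 CPM in Pulsed libraries and at 14.8, 30.8, 39.3 and 22.2 CPM in Mettl3-RNP libraries, highest in replicate 3 of both. Mrps33, also of the small subunit, had the most even level in Pulsed libraries, from 19.7 to 21.1 CPM. The 6 pseudogenes that carry a family symbol reached at most 0.298 CPM in any library and were not counted as members.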
